A study of Mus musculus with 2 samples.

Results

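The genes described here are 6 regulators of G-protein signalling, *Rgs1*, *Rgs2*, *Rgs3*, *Rgs10*, *Rgs16* and *Rgs19*, out of 32285 genes counted. They were taken by gene symbol, all 6 symbols were found, and each was described in effector, memory-like and naive-like CD8+ T cells and in the NC library against the WD library. The cells were CD8+ tumor-infiltrating lymphocytes (TIL) from transplanted B16 F0 tumors, a mouse melanoma, in male mice of 16 weeks of age. The methods list C57BL/6 as the wild-type strain, and no transgene is named for these mice. Lean mice received normal chow (NC) and obese mice a western diet (WD) that models diet-induced obesity, and each diet gave 1 droplet library of cells enriched on CD8 beads and sorted for CD8. How many mice each library pools is not given in the sources used here, so differences between diets carry no replicate error, and no test between diets was made.

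G protein coupled receptors, among them the chemokine receptors that steer T cells into and through a tumor, switch on heterotrimeric G proteins by letting the Gα subunit bind GTP. Regulators of G-protein signalling (RGS proteins) bind the active Gα subunit and speed up its GTP hydrolysis, which ends the signal. In lymphocytes they are best known as brakes on chemokine-driven migration, and several are themselves induced or lost when a T cell is activated.

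*Rgs1* (ENSMUSG00000026358), a brake on chemokine receptor signalling in lymphocytes, lies on chromosome 1 at 144242296 to 144249242 (GRCm38, minus strand, GENCODE annotation). *Rgs2* (ENSMUSG00000026360), known for its preference for Gαq, lies on the same strand at 143999338 to 144004161, 238135 bp from *Rgs1*. *Rgs16* (ENSMUSG00000026475), a small RGS protein that acts on Gαi and Gαq, lies on the plus strand of the same chromosome at 153740349 to 153745468. *Rgs3* (ENSMUSG00000059810), another regulator of Gαi and Gαq, spans 62559847 to 62704001 on chromosome 4 (plus strand). *Rgs10* (ENSMUSG00000030844), which acts on Gαi, spans 128373621 to 128418758 on chromosome 7 (minus strand), where *Gm15503* overlaps it on the same strand, so its count is uncertain where reads could be assigned to either. *Rgs19* (ENSMUSG00000002458), also called GAIP for its binding to Gαi, lies on chromosome 2 at 181688419 to 181693977 (minus strand). Antisense genes in the count table overlap *Rgs3* (*Gm11209*) and *Rgs16* (*Gm28513*).

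RefSeq promoter windows (GRCm38.p6) were at hand for 5 of the 6 members, in 8 windows, and none was held for *Rgs1*. The 250 bases before the start are shown for *Rgs2*, whose level differed most between the libraries over all cells, and for *Rgs16*, which differed most between gates. Both are read 5′ to 3′ on the strand of the gene, at chr1:144004150-144004399 for *Rgs2* (minus strand) and chr1:153740103-153740352 for *Rgs16* (plus strand). Capitals mark TGACG (the half-site of the cAMP response element), GGGCGG (the GC box) and CCAAT, each on either strand, and the 2 GC boxes of *Rgs16* share 1 base.
Rgs2: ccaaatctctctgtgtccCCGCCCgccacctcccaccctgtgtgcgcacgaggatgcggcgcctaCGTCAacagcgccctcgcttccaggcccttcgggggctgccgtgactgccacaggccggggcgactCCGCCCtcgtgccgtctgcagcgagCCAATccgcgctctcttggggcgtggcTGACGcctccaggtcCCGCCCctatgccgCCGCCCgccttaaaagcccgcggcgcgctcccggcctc
Rgs16: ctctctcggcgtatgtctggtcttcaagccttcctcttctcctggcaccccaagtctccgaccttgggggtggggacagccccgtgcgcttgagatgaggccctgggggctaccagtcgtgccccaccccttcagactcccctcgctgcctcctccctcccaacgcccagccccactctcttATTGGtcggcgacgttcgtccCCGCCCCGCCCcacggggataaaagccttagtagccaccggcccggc
The *Rgs2* window held 2 matches to TGACG, which begin 185 and 67 bases before the start, 4 to GGGCGG and 1 to CCAAT. The *Rgs16* window held 2 matches to GGGCGG and 1 to CCAAT, and none to TGACG. The cAMP half-site was in 1 of the 8 member windows and in 17.8% of all 32851 windows of the same length, GGGCGG in 6 of 8 and in 32.7%, and CCAAT in 2 of 8 and in 33.8%. The GC content of the member windows ran from 48.4% (*Rgs3*) to 76.4% (*Rgs10*), and the median of all windows was 52.4%. Windows of like GC content were not compared. Windows of *Rgs19* overlap and share a match to GGGCGG, so the 8 are not separate. The full element TGACGTCA, present in 1.55% of all windows, and TGANTCA (AP-1), present in 6.75%, were in no member window. GGAAA, the core of NFAT sites, was in 3 of 8 member windows against 55.6% of all windows, and TATAAA in 2 of 8, both of *Rgs3*, against 12.4%. A match to these letters is a description of the sequence, not a binding site.

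After the filters of the study on mitochondrial share and total count, 2456 of 2697 NC cells and 2289 of 2623 WD cells were kept here, with 27815785 and 28705830 unique molecular identifiers (UMIs, each marking 1 captured RNA molecule). The cell numbers stated for the original analysis equal the deposited totals, so the same thresholds, applied again, left fewer cells. The deposited libraries shared 4 cell barcodes, of which 3 were among the cells kept in each. The 6 members together gave 25658 UMIs in the NC library, 0.0922% of the total, and 27032 in the WD library, 0.0942%. Gates were set on other genes: a cell was called effector with at least 5 UMIs per 10000 of 8 cytotoxicity and inhibitory receptor genes (*Gzmb*, *Prf1*, *Gzmc*, *Gzmd*, *Gzme*, *Gzmf*, *Havcr2*, *Lag3*), otherwise memory-like with at least 20 UMIs per 10000 of *Ccl5*, *Gzmk* and *Gzma*, and otherwise naive-like with UMIs of at least 2 of 4 naive T cell genes, among them *Ccr7*, *Lef1* and *Tcf7*. This gave 1394 effector, 541 memory-like and 342 naive-like cells in the NC library and 992, 737 and 363 in the WD library, with 179 and 197 cells in no gate. These numbers are denominators and are not compared between diets, because the gate genes themselves differed: the summed effector gate genes were at 3769 UMIs per 1000000 (CPM) in NC effector cells and at 1846 CPM in WD effector cells. Gates are ranges of a score, and 421 NC cells (17.1%) and 649 WD cells (28.4%) lay between 0.5 and 2 times the effector limit.

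The gates were checked against genes that were not used to set them. All 7 effector check genes, among them *Ifng*, *Pdcd1* and *Tox*, were highest in the effector gate of both libraries. Of 6 memory check genes, 4 were highest in the memory-like gate of both libraries, while *Il2rb* and *Klrd1* were highest in effector cells. All 7 naive check genes were highest in the naive-like gate of the WD library, but in the NC library 4 of them, *Il7r*, *S1pr1*, *Klf2* and *Foxp1*, were highest in the memory-like gate. The memory-like gates of the libraries therefore held different mixtures. In NC, 302 of its 541 cells (55.8%) carried at least 2 of the 4 naive gate genes and 9 (1.66%) were cycling, against 275 of 737 (37.3%) and 101 (13.7%) in WD. Over the cells of this gate, the median summed level of the effector check genes was 17.5 per 10000 UMIs in NC and 29.5 in WD. The other gates were not alike between libraries either. The same median in effector cells was 53.9 in NC and 44.6 in WD. In naive-like cells the median of the naive check genes was 24.3 in NC and 30.2 in WD.

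*Rgs16*, *Rgs1*, *Rgs2* and *Rgs3* were higher in effector than in naive-like cells of both libraries, *Rgs10* was lower, and *Rgs19* was level. For each gate the UMIs of all its cells were added up and are given as CPM with an exact Poisson 95% interval. Ratios are log2 with an exact conditional binomial 95% interval. Both cover counting error only. Levels were counted at the 3′ end and are compared for 1 gene at a time. Because the median cell held 7976.5 NC and 7827 WD UMIs in the naive-like gate, 6574 and 8256 in the memory-like gate and 10681.5 and 12673.5 in the effector gate, shares of cells were compared with each cell thinned to 2000 UMIs, which left 341 and 360 naive-like, 534 and 700 memory-like and 1308 and 943 effector cells.

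*Rgs16* had the largest rise into the effector gate. In the NC library it was at 36.03 CPM (29.8 to 43.1) in naive-like cells, at 22.8 CPM (18.1 to 28.4) in memory-like cells and at 356 CPM (348 to 365) in effector cells. In the WD library the same gates held 65.8 CPM (57.6 to 74.8), 113 CPM (105 to 121) and 303 CPM (294 to 312). The effector level was thus 9.88 times the naive-like level in NC, a log2 ratio of 3.30 (3.04 to 3.58), and 4.60 times in WD, a log2 ratio of 2.20 (2.01 to 2.40). Its order was effector over naive-like over memory-like in NC and effector over memory-like over naive-like in WD, with intervals that did not overlap between neighbours in either library. The order of the memory-like and naive-like gates was not stable. Without cycling cells *Rgs16* was at 20.6 CPM (15.5 to 26.7) in naive-like and 23.1 CPM (18.4 to 28.8) in memory-like cells of NC, which overlapped, and over all settings tried the log2 ratio of memory-like over naive-like ran from −1.55 to 1.31 in NC and from −0.53 to 2.52 in WD. Outside the effector gate its UMIs came from few cells. At this depth, 4.69% of NC and 6.11% of WD naive-like cells had an *Rgs16* UMI, against 41.9% (39.2% to 44.6%) and 36.1% (33.0% to 39.2%) of effector cells. Without thinning these shares were 13.5% and 18.5% of naive-like and 73.9% and 69.4% of effector cells. The 10% of naive-like cells with the most *Rgs16* held 90.8% of its UMIs in NC and 87.1% in WD. In effector cells the corresponding shares of UMIs were 40.4% and 40.6%. No cell type here is known to lack the member genes, so free RNA was gauged with *Ccl4*, an effector chemokine: its naive-like level was 6.24% of its effector level in NC and 3.70% in WD, against 10.1% and 21.7% for *Rgs16*. *Ccl4* was chosen after its values were seen and had the largest such difference of the 7 effector check genes. As a mean of both libraries, its log2 ratio of effector over naive-like was 4.38. The median of the 7 check genes was 2.66, and *Rgs16* was at 2.75.

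*Rgs1* was lowest in naive-like cells of both libraries. It was at 79.3 CPM (70.0 to 89.5), 241 CPM (225 to 258) and 491 CPM (481 to 500.5) in the NC library and at 107 CPM (96.3 to 118), 389.5 CPM (375 to 405) and 432 CPM (422 to 442) in the WD library. The log2 ratio of effector over naive-like cells was 2.63 (2.45 to 2.81) in NC and 2.02 (1.87 to 2.17) in WD. The step from memory-like to effector was a log2 ratio of 1.03 (0.93 to 1.13) in NC and 0.15 (0.08 to 0.21) in WD. The NC step ranged from 0.28 to 1.72 over the settings tried and the WD step from −0.16 to 0.71, so the sign of the latter was not stable. At 2000 UMIs per cell, *Rgs1* was seen in 10.9% of naive-like, 29.4% of memory-like and 50.7% of effector cells in NC and in 18.3%, 44.3% and 50.4% in WD. Without thinning the shares were 29.8%, 51.8% and 82.8% in NC and 43.5%, 73.0% and 86.5% in WD.

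*Rgs2* was lowest in naive-like and highest in effector cells, at a different level in each library. It was at 43.0 CPM (36.2 to 50.7), 107 CPM (96.9 to 119) and 135 CPM (130.0 to 140.4) in naive-like, memory-like and effector cells of NC, and at 92.1 CPM (82.4 to 103), 169.8 CPM (160.2 to 179.9) and 230.2 CPM (223 to 238) in those of WD. All 3 WD levels lay above the NC level of the same gate, with no overlap of the intervals. Effector over naive-like was a log2 ratio of 1.65 (1.41 to 1.91) in NC and 1.32 (1.16 to 1.49) in WD. The step from memory-like to effector was 0.33 (0.18 to 0.49) in NC and 0.44 (0.34 to 0.53) in WD. Over the settings tried it ran from −0.02 to 0.67 in NC, so its sign there was not stable, and from 0.30 to 0.68 in WD. *Rgs3* was at 18.8, 37.8 and 45.5 CPM in the 3 gates of NC and at 24.0, 43.7 and 45.9 CPM in those of WD. Effector over naive-like *Rgs3* was 1.28 (0.91 to 1.67) in NC and 0.94 (0.61 to 1.28) in WD on the log2 scale. Its memory-like and effector CPM intervals overlapped in both libraries. The log2 ratio of effector over memory-like *Rgs3* was 0.27 (0.005 to 0.54) in NC, just off 0, and 0.07 (−0.12 to 0.27) in WD. Over the settings tried this ratio ran from −0.10 to 1.04 in NC and from −0.10 to 0.40 in WD. Its sign was thus not stable.

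*Rgs10* ran the other way. It was at 158 CPM (144 to 172) in naive-like, 118 CPM (107 to 130.0) in memory-like and 28.3 CPM (26.0 to 30.7) in effector cells of NC, and at 177 CPM (163 to 191), 72.2 CPM (65.9 to 78.8) and 23.5 CPM (21.2 to 26.1) in those of WD. The effector level was lower than the naive-like level by 5.58 times in NC (log2 ratio −2.48, −2.66 to −2.30) and 7.51 times in WD (−2.91, −3.10 to −2.72). The thinned share of cells with an *Rgs10* UMI was 24.0% (19.6% to 28.9%) in naive-like and 6.88% (5.57% to 8.39%) in effector cells of NC, and 29.2% (24.5% to 34.2%) and 5.41% (4.05% to 7.05%) in those of WD. Without thinning it was 65.2% and 22.7% in NC and 70.0% and 25.4% in WD. *Rgs19* lay between 39.3 and 44.3 CPM in the 3 gates of both libraries, and its effector over naive-like log2 ratios of −0.15 (−0.41 to 0.12) and 0.11 (−0.15 to 0.39) included 0.

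**Figure D1:**
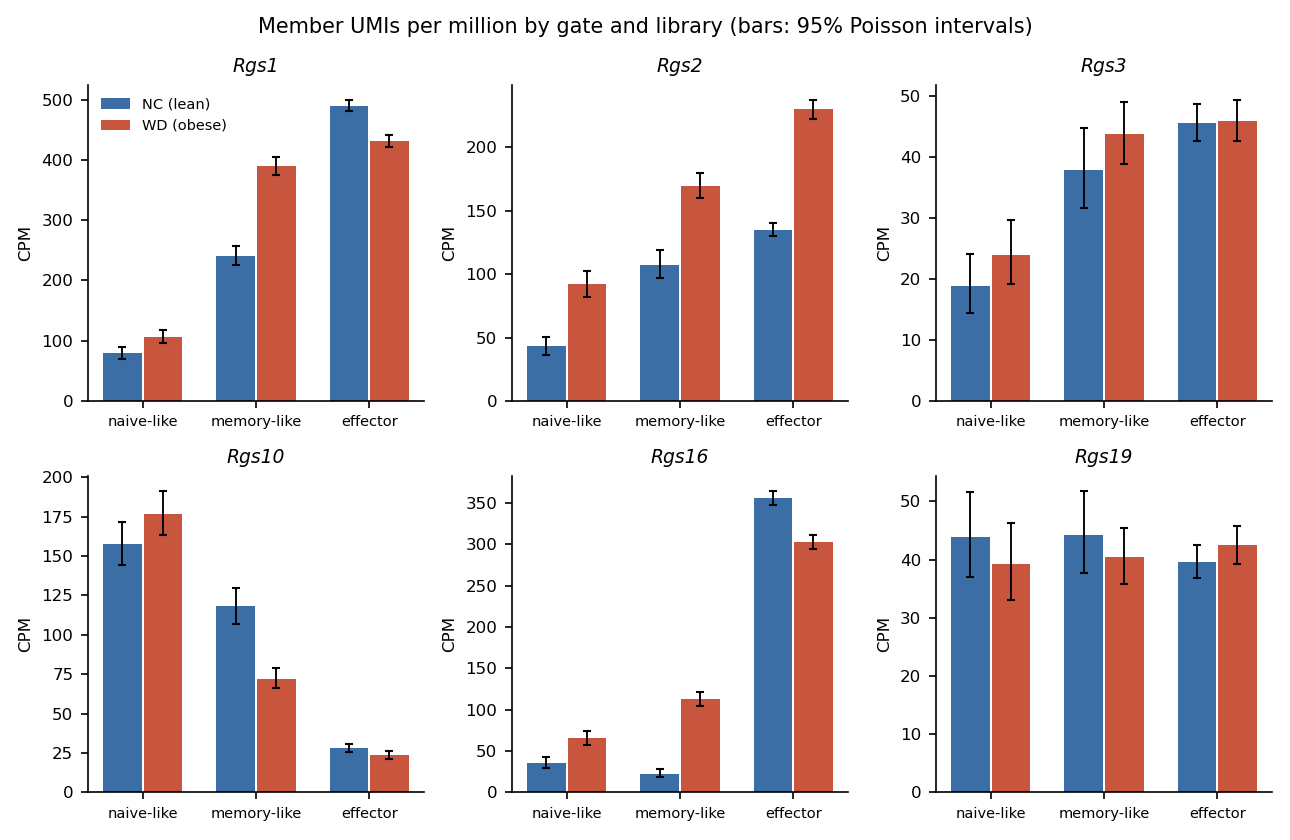
CPM of each member (y axis, from 0, a scale of its own in each panel) in naive-like, memory-like and effector cells of the NC and WD libraries, with exact Poisson 95% intervals. *Rgs16* stands at 356 and 303 CPM in effector cells against 36.03 and 65.8 in naive-like cells, *Rgs10* falls from 158 and 177 to 28.3 and 23.5, and *Rgs2* is higher in WD in every gate.

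A gene was counted as higher or lower between gates where its log2 ratio was past 1 in both libraries, among genes with at least 20 CPM in 1 of the gates compared. All 6 members passed that minimum in each comparison. Between effector and naive-like cells, 3 members were higher (*Rgs1*, *Rgs2*, *Rgs16*) and 1 lower (*Rgs10*), against a background of 9.04% of 5043 genes higher and 2.62% lower. Between memory-like and naive-like cells, only *Rgs1* was counted as higher, at 1.60 in NC and 1.87 in WD, and none as lower, against 0.963% and 0.241% of 4571 genes. This count ran from 0 to 4 members over the settings tried, and with gates set on thinned counts, which gave 4 members higher, 2.37% of all genes were higher. *Rgs2* reached 1.32 in NC and 0.88 in WD, and *Rgs16* was −0.66 in NC and 0.78 in WD. Between effector and memory-like cells, *Rgs16* was higher, at 3.96 (3.65 to 4.30) in NC and 1.42 (1.31 to 1.54) in WD, and *Rgs10* lower, at −2.06 (−2.25 to −1.88) and −1.62 (−1.81 to −1.42), against 4.06% and 2.34% of 5122 genes. Set against only the memory-like cells with fewer than 2 naive gate genes, the WD ratios were 0.90 for *Rgs16* and −0.89 for *Rgs10*, and neither was counted. The median gene itself was not at 0 in these comparisons: it was at 0.36 and 0.38 for effector over naive-like in NC and WD, and at 0.30 and 0.19 for effector over memory-like.

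**Figure D2:**
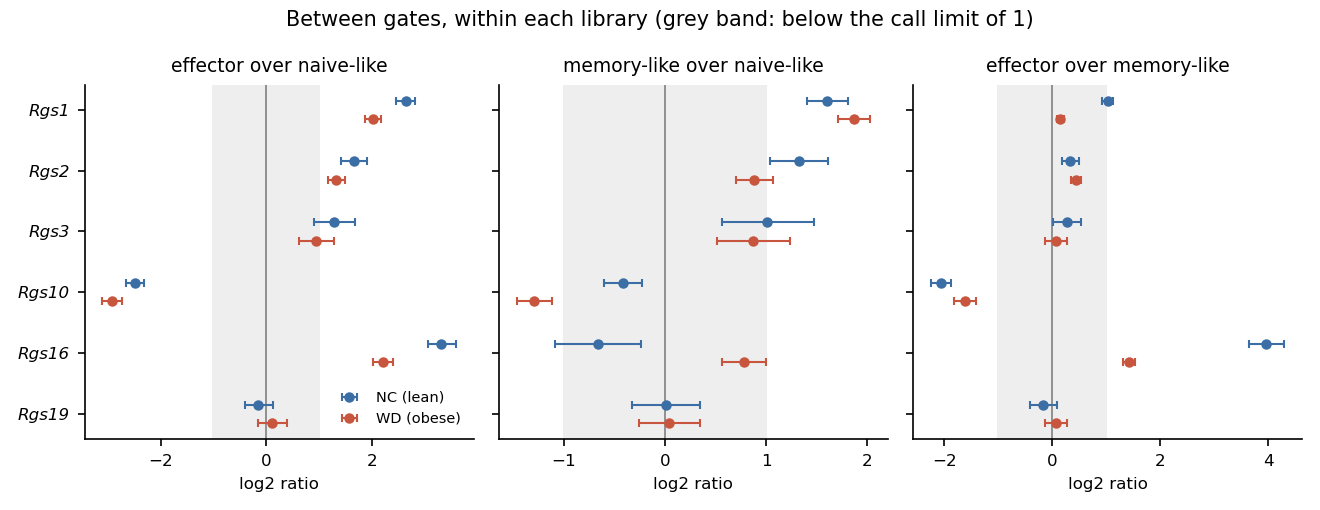
Log2 ratios between gates (x axis) for the 6 members in the NC and WD libraries, with exact conditional binomial 95% intervals and a grey band out to the limit of 1. *Rgs16* reaches 3.96 over memory-like cells in NC and 1.42 in WD, *Rgs10* is below 0 in all 3 comparisons, and *Rgs19* lies between −0.16 and 0.11.

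Between diets, *Rgs2* was the 1 member higher in WD by a log2 ratio past 0.5 in every gate. Over all cells kept it was at 118 CPM (114 to 122) in NC and at 196 CPM (191 to 202) in WD, 1.67 times as high, a log2 ratio of WD over NC of 0.74 (0.68 to 0.80). The ratio was 1.10 (0.81 to 1.39) in naive-like cells, 0.66 (0.49 to 0.83) in memory-like cells, 0.77 (0.70 to 0.84) in effector cells and 1.39 (1.10 to 1.69) in cells of no gate. More cells carried it as well. At 2000 UMIs per cell, 22.4% (20.2% to 24.8%) of effector cells had an *Rgs2* UMI in NC and 33.6% (30.6% to 36.7%) in WD, and the shares were 17.6% and 25.6% in memory-like and 9.09% and 16.7% in naive-like cells. Without thinning, 60.5% of NC and 71.1% of WD effector cells had one. Since *Rgs2* is also made by myeloid cells, markers of other cell types were read beside it. The 4 dendritic markers *H2-Aa*, *H2-Ab1*, *Siglech* and *Flt3* summed to 23.6 CPM over all NC cells and 72.7 CPM over all WD cells, the 5 myeloid markers to 22.4 and 21.6 CPM, and the red cell globins *Hba-a1* and *Hbb-bs* to 0 UMIs in NC and 6314 in WD. Of these globin UMIs, 6288 lay in WD cells of no gate. In cells of no gate the dendritic markers summed to 65.0 CPM in NC and 265 CPM in WD, and the myeloid markers to 175 and 49.9 CPM. The *Rgs2* ratio of those cells is thus not one of CD8+ T cells alone. In the 1870 NC and 1689 WD cells with *Cd8a* or *Cd8b1* and no UMI of any other cell type marker, the *Rgs2* ratio was 0.66 over all cells, 1.16 in naive-like, 0.69 in memory-like and 0.64 in effector cells.

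The other members differed less between diets over all cells, where *Rgs1* was at 399 and 375 CPM (log2 ratio −0.09, −0.13 to −0.05) and *Rgs16* at 267 and 229.6 CPM (−0.22, −0.27 to −0.17). The *Rgs1* ratio depended on how cells were weighted, and was 0.12 with each cell thinned to 2000 UMIs and 0.10 as a mean over cells. *Rgs3*, *Rgs10* and *Rgs19* were at 41.2 and 42.6, 56.7 and 56.3, and 40.4 and 41.6 CPM, with log2 ratios of 0.05 (−0.07 to 0.17), −0.01 (−0.11 to 0.09) and 0.04 (−0.08 to 0.16). A gene was counted as differing between diets where its log2 ratio was past 0.5. Over all cells 1 member, *Rgs2*, was higher in WD and none lower, against 2.21% and 1.56% of 5072 genes, where the median gene was at 0.03 and the median member at 0.01.

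In effector cells *Rgs2* was again the member counted as higher in WD and none was lower, against 2.74% and 1.91% of 5179 genes, with medians of −0.09 for the members and 0.04 for all genes. *Rgs16* was 1.18 times lower in WD effector cells (−0.23, −0.29 to −0.18), and its thinned share was 41.9% in NC and 36.1% in WD. *Rgs1* was lower by a log2 ratio of −0.18 (−0.23 to −0.14) in the summed counts, but by 0.02 in the other direction with each cell thinned to 2000 UMIs, and its thinned shares of 50.7% and 50.4% overlapped. *Rgs10* was at −0.26 (−0.46 to −0.07), and the intervals of *Rgs3* (0.01, −0.13 to 0.16) and *Rgs19* (0.10, −0.05 to 0.25) included 0.

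**Figure D3:**
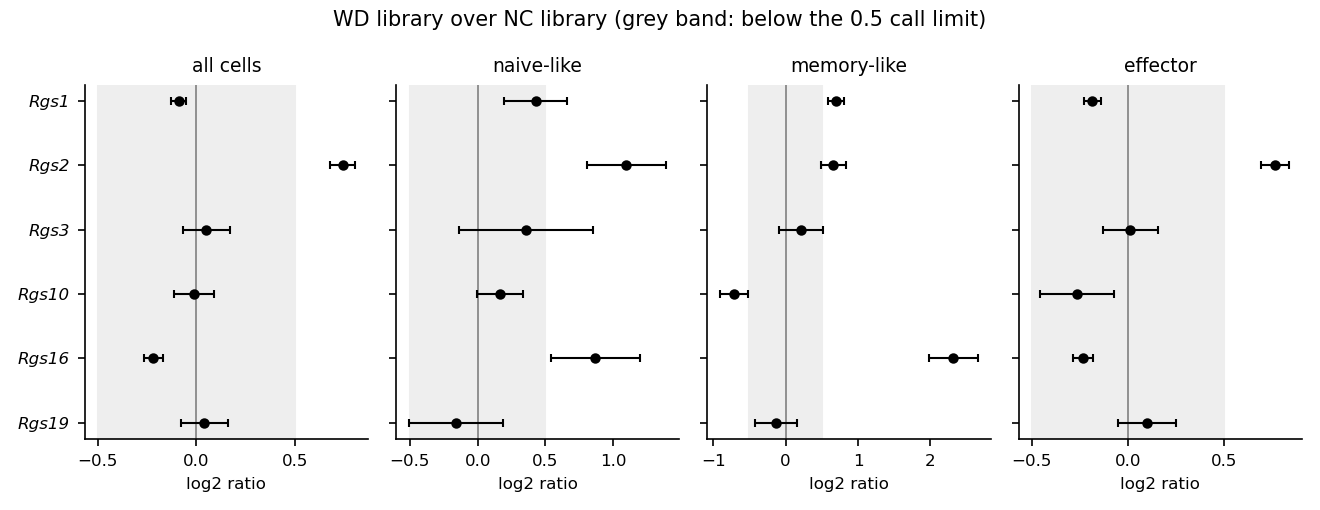
Log2 ratio of the WD over the NC library (x axis, a scale of its own in each panel) for the 6 members over all cells and in each gate, with exact conditional binomial 95% intervals and a grey band out to the limit of 0.5. *Rgs2* lies past the band in all 4 panels (0.74, 1.10, 0.66 and 0.77), and *Rgs16* lies at 2.30 in memory-like cells and −0.23 in effector cells.

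Cycling cells, those with UMIs of at least 2 of *Mki67*, *Top2a*, *Birc5*, *Cdk1* and *Ccnb2*, made up 468 of the NC and 435 of the WD effector cells. As CPM, *Rgs1*, *Rgs2*, *Rgs3* and *Rgs10* were lower in cycling than in other effector cells of both libraries. The median cycling effector cell held 22751.5 UMIs in NC and 23963 in WD, against 7807 and 7613 in other effector cells. A lower CPM here is thus a smaller share of a larger total, not fewer UMIs per cell, except for *Rgs10* in NC. That gene had 164 UMIs in 468 cycling and 387 UMIs in 926 other effector cells of NC, fewer per cycling cell. *Rgs10* went from 45.1 to 15.04 CPM in NC (−1.58, −1.86 to −1.32) and from 34.5 to 18.2 in WD (−0.92, −1.22 to −0.62). *Rgs1* went from 571 to 427 CPM in NC (−0.42) and from 578 to 361 in WD (−0.68). *Rgs16* differed less, at 377 and 339.5 CPM in NC (−0.15) and 316 and 296 in WD (−0.09). With cycling cells set apart, the diet ratio of *Rgs1* was 0.02 (−0.05 to 0.08) in the other effector cells and −0.24 (−0.30 to −0.18) in cycling ones. That of *Rgs2* was 0.65 (0.54 to 0.75) and 0.99 (0.89 to 1.09), and that of *Rgs16* −0.25 (−0.34 to −0.17) and −0.20 (−0.26 to −0.13).

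In memory-like cells 4 of the 6 members differed between the libraries. *Rgs16* was at 22.8 CPM (81 UMIs) in NC and at 113 CPM (774 UMIs) in WD, a log2 ratio of 2.30 (1.97 to 2.65). *Rgs1* was 1.62 times as high in WD (0.69, 0.58 to 0.81) and *Rgs2* 1.58 times (0.66, 0.49 to 0.83), while *Rgs10* was 1.64 times lower (−0.71, −0.90 to −0.52). *Rgs3* and *Rgs19* were at 0.21 (−0.09 to 0.52) and −0.13 (−0.42 to 0.16). This makes 3 members counted as higher and 1 as lower, against 11.5% and 2.48% of 4952 genes, and the median gene was at 0.13 and the median member at 0.44. The size of the *Rgs16* ratio moved with the cells that entered. It was 1.34 with each cell thinned to 2000 UMIs, 1.40 as a mean over cells, 1.74 in cells without markers of other cell types and 0.89 with both gate limits doubled, and its thinned share was 3.75% (2.30% to 5.73%) in NC and 9.14% (7.11% to 11.5%) in WD, or 8.32% and 25.2% without thinning.

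Because the memory-like gate held different mixtures in the libraries, it was split. The split by naive gate genes did not make the libraries alike. Cycling cells were 0.662% of NC and 8.73% of WD cells with at least 2 naive gate genes, and 2.93% and 16.7% of those with fewer. In cells that were not cycling, *Rgs16* was at 23.1 CPM (18.4 to 28.8) in NC and 59.2 CPM (52.7 to 66.3) in WD, a log2 ratio of 1.36 (0.996 to 1.73), while *Rgs1* (0.71), *Rgs2* (0.64) and *Rgs10* (−0.56) stayed past 0.5. In memory-like cells with at least 2 naive gate genes, *Rgs16* was at 12.3 CPM (8.19 to 17.8) and 45.7 CPM (38.3 to 54.2), and in the remaining ones at 41.6 CPM (31.2 to 54.4) and 162 CPM (149.9 to 175), with log2 ratios of 1.89 and 1.96. For *Rgs1* the same split gave 0.83 and 0.25, for *Rgs2* 0.76 and 0.40, and for *Rgs10* −0.42 and −0.56. In this gate the 4 dendritic markers summed to 2.26 CPM in NC, with *H2-Aa*, *Siglech* and *Flt3* at 0, and to 85.1 CPM in WD, with none at 0. The 5 myeloid markers summed to 10.4 CPM in NC, with *Csf1r* and *C1qa* at 0, and to 28.0 CPM in WD, with none at 0. The part of the cell mixture and of these markers in the memory-like ratios was not tested beyond these splits, and diet and library cannot be told apart.

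**Figure D4:**
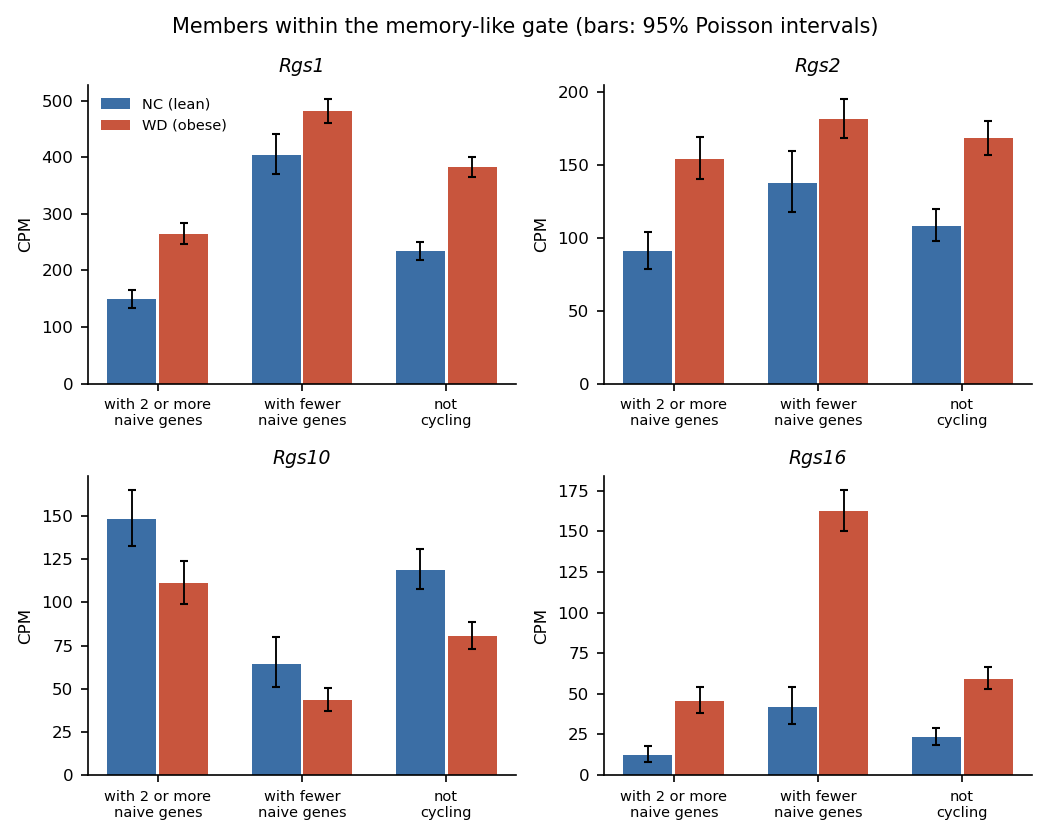
CPM of *Rgs1*, *Rgs2*, *Rgs10* and *Rgs16* (y axis, from 0, a scale of its own in each panel) in memory-like cells with at least 2 naive gate genes, with fewer, and not cycling, for the NC and WD libraries, with exact Poisson 95% intervals. *Rgs16* is higher in WD in all 3 sets (45.7 against 12.3, 162 against 41.6, and 59.2 against 23.1 CPM), and *Rgs10* is lower in all 3.

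In naive-like cells *Rgs2* and *Rgs16* were counted as higher in WD and no member as lower, against 6.8% and 1.91% of 4648 genes, with medians of 0.39 for the members and 0.04 for all genes. *Rgs16* was not counted with gates set on thinned counts, where its ratio was 0.19. *Rgs16* was at 36.03 and 65.8 CPM (0.87, 0.54 to 1.20), but its thinned shares of 4.69% (2.71% to 7.51%) and 6.11% (3.87% to 9.11%) overlapped. *Rgs1* was at 79.3 and 107 CPM (0.43, 0.20 to 0.66), with thinned shares of 10.9% (7.76% to 14.6%) and 18.3% (14.5% to 22.7%). The 16 NC and 22 WD naive-like cells with an *Rgs16* UMI at this depth held 687.5 and 295.5 CPM of the 5 cycling genes, against 61.5 and 119.8 CPM in the naive-like cells without one. In naive-like cells that were not cycling, *Rgs16* was at 20.6 and 49.7 CPM (1.28) and the *Rgs1* ratio was 0.92 (0.62 to 1.22). *Rgs10*, the member most abundant here relative to its own level elsewhere, was at 0.16 (−0.01 to 0.34), *Rgs3* at 0.36 (−0.13 to 0.85) and *Rgs19* at −0.16 (−0.51 to 0.18). In this gate the dendritic markers summed to 35.1 CPM in NC and 49.7 in WD.

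Within single cells the members were seen together most often in the effector gate. With each cell thinned to 2000 UMIs, a cell of the effector gate held UMIs of 1.40 members on average in NC and 1.43 in WD, against 0.616 and 0.817 in naive-like and 0.824 and 1.07 in memory-like cells. UMIs of 3 or more members were seen in 13.5% of NC and 14.2% of WD effector cells, in 3.37% and 5.14% of memory-like cells, and in 1.47% and 3.33% of naive-like cells. No member was seen in 18.7% and 18.5% of effector cells and in 51.0% and 38.9% of naive-like cells. Such counts rise with the share of cells that hold each member, and the counts expected without joint expression were not computed. Pairs of members were read within effector cells. *Rgs1* was seen in 52.7% of NC effector cells with an *Rgs16* UMI and in 49.2% of those without, and in WD in 49.4% and 50.9%. *Rgs2* was seen in 24.8% of NC effector cells with *Rgs16* and 20.7% of those without, and in 38.2% and 31.0% in WD.

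**Figure D5:**
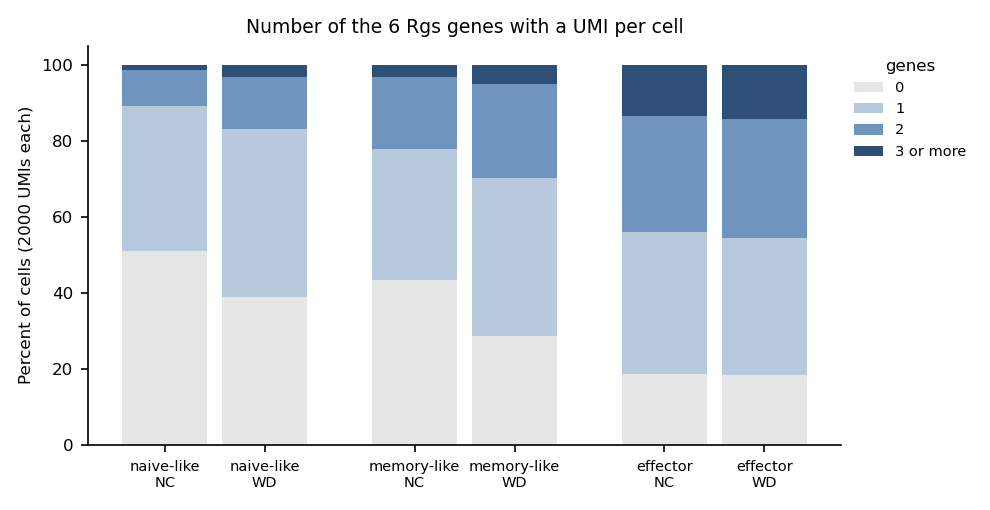
Share of cells (y axis, percent, stacked to 100) with UMIs of 0, 1, 2 and 3 or more of the 6 members in each gate of the NC and WD libraries, with each cell thinned to 2000 UMIs. The effector columns are alike (no member in 18.7% and 18.5% of cells), while the naive-like columns have no member in 51.0% and 38.9%.

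Effector cells with an *Rgs16* UMI were set against effector cells without one, at 2000 UMIs per cell. The 7 naive check genes summed to 350.4 CPM in the 548 NC cells with *Rgs16* and to 637.5 CPM in the 760 without (log2 ratio −0.86, −1.04 to −0.69), and to 357 and 689.9 CPM in the 340 and 603 WD cells (−0.95, −1.16 to −0.74). The summed UMIs of 10 genes of T cell receptor induction, such as *Nr4a1* and *Tnfrsf9*, were higher in *Rgs16*-bearing cells, by 0.34 (0.21 to 0.46) in NC and 0.40 (0.26 to 0.54) in WD. The summed UMIs of 9 residency and exhaustion genes, such as *Pdcd1* and *Tox*, were higher by 0.22 (0.13 to 0.31) and 0.39 (0.26 to 0.51). This list includes *Havcr2* and *Lag3*, which had helped to set the effector gate, and *Cd69* is in both lists. Single genes of the lists were not compared. The summed cycling genes were higher in *Rgs16*-bearing cells as well, by 0.26 in NC and 0.22 in WD. The same split by *Rgs1* gave 0.20 in NC and 0.00 in WD for the T cell receptor genes and 0.15 and −0.23 for the naive check genes, with no shared direction in these lists. The residency and exhaustion genes were at 0.11 (0.01 to 0.20) and 0.06 (−0.06 to 0.18) in that split. Split by *Rgs2*, the T cell receptor genes were at 0.07 in NC and 0.35 (0.21 to 0.49) in WD, the latter near the *Rgs16* value. The naive check genes were then at 0.25 and −0.26, and the residency and exhaustion genes at 0.11 and 0.16. Cells of 1 library are not replicates, so these intervals describe the 2 libraries.

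The genes most like each member were found by Pearson's r of log2(CPM + 1) over 10 groups (naive-like, memory-like, cycling effector, other effector and ungated cells in each library) among 4850 genes with a mean of at least 20 CPM. The 10 points share 2 libraries and r is given as a description. *Rgs1* was most like *S100a4* (r = 0.98), *Tnfrsf1b* (0.98) and *Ifng* (0.98), which encode a calcium-binding protein, a TNF receptor and the effector cytokine interferon-γ. *Rgs16* was most like *Tank* (0.98), *Acot9* (0.98) and *Itgav* (0.98), the last an integrin subunit. *Rgs2* was most like *Fnbp1* (0.97), *Hspa5* (0.96) and *Ppp3ca* (0.96), the last 2 an endoplasmic reticulum chaperone and the catalytic subunit of calcineurin, and *Rgs3* was most like *Trip12* (0.97), *Ttc39c* (0.96) and *Kansl1* (0.96). Among the genes most like *Rgs10* were *Pik3ip1* (0.97), which encodes an inhibitor of PI3K, and *Tcf7* (0.97), which had helped to set the naive-like gate. *Rgs19* had no gene above *Zfp871* (0.86). Among the members, *Rgs1* and *Rgs3* were most alike (0.95), and *Rgs10* and *Rgs16* most opposed (−0.83).

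Of 15 other *Rgs* genes, 8 had no UMI in either library, and none reached 20 CPM over all cells. *Rgs14*, a relative of *Rgs10*, was at 14.5, 15.8 and 17.7 CPM in naive-like, memory-like and effector cells of NC and at 14.7, 17.9 and 17.9 CPM in those of WD. *Rgs8* was at 17.8 and 13.4 CPM in effector cells of NC and WD, against 1.51 and 0.282 CPM in naive-like cells (5 and 1 UMIs). It ends 40026 bp before the start of *Rgs16* on the same strand, and its r with *Rgs16* over the 10 groups was 0.82. Among 14 further genes whose proteins carry an RGS homology domain, 3 reached 20 CPM over all cells, *Grk2*, *Grk6* and *Arhgef1*, and none was counted as differing between diets there. Of all genes, 2.21% were higher in WD and 1.56% lower.

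The partners of the members were read from lists of G protein subunits and receptors. Of 13 Gα genes, 5 reached 20 CPM over all cells. *Gnai2*, the main Gαi subunit of lymphocytes and a substrate of most members, was at 369, 407 and 620.4 CPM in the 3 gates of NC and 430.4, 500.3 and 649 CPM in those of WD. *Gnaq*, the Gαq subunit that *Rgs2* prefers, was at 4.26 and 5.19 CPM in effector cells, under the minimum. *Gna15*, a Gαq-type subunit of blood cells, was the 1 Gα gene counted as higher in effector than in naive-like cells, at 45.9 against 8.48 CPM in NC and 32.8 against 9.04 CPM in WD. Of all genes, 9.04% were counted as higher in that comparison. *Gna13* was the 1 Gα gene counted as higher in WD over all cells, by 0.54. Of 11 Gβ and Gγ genes, 5 reached 20 CPM over all cells and none was counted as differing between diets there. Beside these counts and that of *Gna13*, 2.21% of all genes were higher in WD over all cells and 1.56% lower.

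Chemoattractant receptors signal through Gαi, a substrate of most but not all members. Of 16 such receptors, 11 were compared between effector and naive-like cells. Of these, 3 were counted as higher and 3 as lower, beside 9.04% and 2.62% of all genes. *Cxcr6*, which rose along with *Rgs16*, was at 17.6 and 446 CPM in naive-like and effector cells of NC and at 39.3 and 374 CPM in those of WD. *Ccr7*, a lymph node homing receptor, was 1 of the 3 lower ones, but it had helped to set the naive-like gate, which fixes that direction. It was at 20.7 and 22.2 CPM in effector cells. Between diets over all cells, *Cxcr3* was the 1 of 11 counted as higher in WD (0.75) and none was lower, beside 2.21% and 1.56% of all genes. Of the 6 receptors that raise cAMP, *Ptger4*, a receptor for prostaglandin E, was the 1 that reached 20 CPM over all cells, and it was higher in WD by 0.76, and by 0.79 in effector and 0.92 in memory-like cells. Of 11 downstream genes, *Pik3r5* was counted as higher in WD over all cells (0.66) and none as lower. This did not hold by gate. In memory-like cells *Pik3r5* was the lowest of the list, at −0.32, and *Pik3cg* was the 1 counted as higher (0.68). In naive-like and effector cells no downstream gene was counted as higher or lower. The shares of all genes over all cells given above apply to *Ptger4* and *Pik3r5* too. In effector, memory-like and naive-like cells 2.74%, 11.5% and 6.8% of all genes were higher in WD.

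*Rgs1*, *Rgs2* and *Rgs16* are known to be induced by T cell activation, so 10 other genes of that kind were set beside them. Over all cells 7 of these reached 20 CPM, 3 were counted as higher in WD (*Nr4a1* by 0.78, *Nr4a2* by 0.67 and *Nr4a3* by 0.64) and none as lower, beside 2.21% and 1.56% of all genes. *Tnfrsf9*, a receptor induced on activated cells, was the lowest of the 7 at −0.36, and their median was 0.50 beside 0.03 for all genes tested. By gate, *Tnfrsf9* was at 1.84 in memory-like and −0.18 in effector cells, while *Rgs16* was at 2.30 and −0.23. Of the 7 compared, *Tnfrsf9* was the highest in memory-like cells and the lowest in effector cells, where 6 were above 0. In memory-like cells 2 were counted as higher and 1 as lower (median 0.46), beside 11.5% and 2.48% of all genes. In effector cells 4 were higher and none lower (median 0.53), beside 2.74% and 1.91%. In naive-like cells *Tnfrsf9* and *Rgs16* went opposite ways, at −0.62 and 0.87. There 3 of the 7 were higher and 1 lower, beside 6.8% and 1.91%. *Nr4a1* and *Nr4a3* are also raised by handling of cells after dissociation, whose part in the *Rgs2* difference was not tested.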

How the data were processed

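Single-cell RNA was measured in CD8+ TIL sorted from B16 tumors, in 1 library per diet. The deposited values were raw UMI counts (genes by cells) for each library, without normalization, made by the authors per the labels with Cell Ranger 6.0.2 on the mm10 build. The filters of the study were applied to the deposited counts (under 7.5% mitochondrial UMIs, over 500 and under 50000 UMIs), which leaves the depths given above. No doublet caller was run, so doublets were limited by the UMI maximum alone in the main results. The cells without markers of other cell types were used only as an alternative. Doublets of CD8+ T cells under the maximum could remain in both sets. Gene positions and the 99.6% of gene IDs matched come from GENCODE for GRCm38.

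Summing, thinning (fixed seed) and intervals used Python 3.11.15 with numpy 2.4.6, scipy 1.17.1 and pandas 2.3.3. Shares carry Clopper-Pearson 95% intervals. All intervals cover counting error only, so no difference between diets has a test. Scripts were tested on simulated data. The genes named are the 6 members, the genes of the lists with the highest and lowest ratios, and for each member the 3 most alike, of which 1 gene is not reported here. Other list genes named in the text, and *Ccl4*, were chosen after their values were seen. The members and lists were chosen with earlier results of these data known, and the promoter motifs after the *Rgs2* window had been seen. Alternatives were TMM factors of edgeR 4.0.16 (R 4.3.3), other totals, weights, depths, filters and gate limits. These 5 alternatives were added after the data were seen: gates without cycling cells, naive-like and memory-like cells without effector gate UMIs, memory-like cells with naive genes and those with fewer, and libraries without shared barcodes.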

Additional observations from a re-analysis of the deposited data

Results flagged for a closer look

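The diet ratio of *Rgs1* and of *Rgs16* pointed in opposite directions in different gates, and this difference between gates was not tested, because each gate has 1 library per diet. *Rgs1* was higher in WD by a log2 ratio of 0.43 in naive-like and 0.69 in memory-like cells and lower by −0.18 in effector cells. The effector value was 0.02 without cycling cells. *Rgs16* was higher in WD by 0.87 in naive-like and 2.30 in memory-like cells and lower by −0.23 in effector cells. Its effector ratio was −0.25 without cycling cells, and its memory-like ratio 1.36.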

How the results depend on the processing

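Each of 60 ratios of the members was recomputed under up to 16 settings. Of 864 values, 602 lay within the counting interval of the reported ratio and 262 moved outside it. No ratio reported as past its limit changed sign, but smaller ones did, among them *Rgs16* in memory-like over naive-like cells (−1.55 to 1.31 in NC, −0.53 to 2.52 in WD) and *Rgs1* in effector over memory-like cells of WD (−0.16 to 0.71). *Rgs2* was past 0.5 in WD under every setting but memory-like cells with fewer than 2 naive gate genes (0.40), from 0.54 to 0.75 over all cells, 0.82 to 1.18 in naive-like, 0.40 to 0.76 in memory-like and 0.64 to 0.78 in effector cells. *Rgs16* ranged from 0.89 (gate limits doubled) to 2.69 (without the 10 cells with the most of its UMIs) in memory-like cells and from 0.19 (gates set on thinned counts, the 1 setting below 0.5) to 1.30 in naive-like cells. *Rgs1* ranged from 0.23 to 0.94 in naive-like cells, fell in memory-like cells to 0.44 with gate limits doubled and to 0.25 in those with fewer than 2 naive gate genes, and ranged from −0.35 to 0.03 in effector cells. *Rgs10* ranged from −0.83 to −0.42 in memory-like cells, and was short of 0.5 in those with naive genes (−0.42) and in those without effector gate UMIs (−0.43). The count of members past 1 between memory-like and naive-like cells was 1 as reported, 2 as a mean over cells, 4 with gates set on thinned counts and 3 without the 10 cells with the most UMIs of each gene, beside 0.963%, 1.58%, 2.37% and 1.52% of all genes higher and 0.241%, 0.216%, 0.416% and 0.129% lower. Under the alternatives chosen after the data were seen it was 2 without cycling cells and 2 without effector gate UMIs. It was 0 for memory-like cells with naive genes and 3 for those with fewer, 2 of them higher and 1 lower. Beside these counts, 1.03%, 1.19%, 0.450% and 2.21% of all genes were higher and 0.224%, 0.160%, 0.315% and 0.658% lower. The count between effector and memory-like cells was 2 as reported and 0 with memory-like cells that have fewer than 2 naive gate genes. For that setting the share of all genes was not computed. The share of all genes past 0.5 over all cells was 3.77% with the minimum of 20 CPM and 23.8% with none. No paired analysis was possible because each diet has 1 library and the labels give no replicate numbers. With 1 library per diet, differences between mice, libraries and diets cannot be told apart. Ratios that rest on few UMIs have the widest intervals, such as that of *Rgs3* between diets in naive-like cells (62 NC and 85 WD UMIs). Intervals of *Rgs16* outside the effector gate are wide as well.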

Other observations

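*Rgs10* and *Rgs16* were set against each other within memory-like cells at 2000 UMIs per cell. In the WD library *Rgs10* was seen in 3.13% of the 64 cells with an *Rgs16* UMI and in 13.1% of the 636 cells without one. In the NC library it was seen in 20% of the 20 cells with an *Rgs16* UMI and in 17.7% of the 514 without. The shares among *Rgs16*-bearing cells rest on few cells in both libraries, and no interval was computed for them. *Rgs16*-bearing memory-like cells of WD held 468.8 CPM of the 5 cycling genes against 191 CPM in the rest, and 820.3 CPM of the naive check genes against 1882 CPM. In cells of no gate, *Rgs16* was at 198 CPM in NC and 319 CPM in WD, *Rgs1* at 291 and 358 CPM, and *Rgs2* at 77.9 and 204 CPM. These cells also carried the markers of other cell types given above.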
